A study of Mus musculus with 2 samples.

Results

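Interferon-high AE2 cells are alveolar epithelial type II (AE2) cells, the surfactant-making cells of the lung's air sacs, that held many transcripts of interferon-induced GTPases 24 h after lipopolysaccharide (LPS), a component of the bacterial outer membrane. They were chosen from their own counts in the 4 tables of LPS-treated mice. A barcode was taken as an AE2 cell if it had at least 500 detected genes, at most 20% mitochondrial counts, Sftpc at 1% or more of its unique molecular identifiers (UMIs, counted transcript molecules), at least 3 of Lamp3, Abca3, Slc34a2, Napsa, Lpcat1 and Etv5, and no Ptprc. Among these 4178 cells, a member lay in the top quartile of the summed counts of Iigp1, Gbp2, Igtp, Gbp3 and Gbp5 per 10000 UMIs, and outside the top quartile of the summed Cxcl1, Cxcl5, Csf2 and Ccl20. This gave 724 members, 17.3% of the AE2 cells after LPS and 5.15% of the 14048 barcodes of the series. The levels of these 9 genes in members follow from the choice and are given without a test.

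The members came from old (18 months) and young (3 months) C57BL/6JRj mice that had received LPS at 2.5 mg/kg body weight. Old and young mice given saline, taken at the same 24 h, served as controls. After lavage and dispase digestion, with agarose-filled airways taken out, DAPI-negative EpCAM-positive lung cells were sorted and marked with 1 hashtag antibody per group. The 4 groups were mixed in equal numbers and run on 1 droplet lane, and an independent repeat filled the other lane, so each group has 2 tables, numbered by lane (old LPS 1 and 2, young LPS 1 and 2). Neither the number of mice in a table nor the route of LPS was stated in the labels, and p-values therefore reflect the spread between tables, which may be technical.

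Interferons signal through Janus kinases to STAT transcription factors. STAT pairs formed after interferon gamma bind gamma-activated sequences (GAS), whereas the complex formed after the other interferons, which holds STAT2 and IRF9, binds interferon-stimulated response elements (ISRE), which IRF1 also recognises. Their target genes include GTPases that attack vacuoles holding microbes, antiviral effectors and the antigen presentation machinery, and AE2 cells are known to carry class II molecules even at rest.

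The 250 bases before the RefSeq start (GRCm38.p6) are shown for 6 genes with either core: Gbp2 and Igtp of the rule, and Gbp7, Irf1, Ifit3 and Socs1, whose levels are described further on. Capitals mark an ISRE core (GAAA, 2 bases of any kind and GAAA, or TTTC, 2 bases and TTTC on the other strand) or a GAS core (TTC, 3 bases of any kind and GAA, which reads alike on both strands), and overlapping matches run together. Each line runs 5′ to 3′ on the gene's strand and ends at the base before the start. The windows are chr3:142620413-142620662 (+) for Gbp2, chr11:58199306-58199555 (+) for Igtp, chr3:142530086-142530335 (+) for Gbp7, chr11:53769764-53770013 (+) for Irf1, chr19:34583279-34583528 (+) for Ifit3 and chr16:10785537-10785786 (-) for Socs1.
Gbp2: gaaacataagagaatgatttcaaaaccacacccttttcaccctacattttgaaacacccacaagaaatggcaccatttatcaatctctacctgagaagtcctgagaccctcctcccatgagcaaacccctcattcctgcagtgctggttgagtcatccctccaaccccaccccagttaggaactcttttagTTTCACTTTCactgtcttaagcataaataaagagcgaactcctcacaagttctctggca
Igtp: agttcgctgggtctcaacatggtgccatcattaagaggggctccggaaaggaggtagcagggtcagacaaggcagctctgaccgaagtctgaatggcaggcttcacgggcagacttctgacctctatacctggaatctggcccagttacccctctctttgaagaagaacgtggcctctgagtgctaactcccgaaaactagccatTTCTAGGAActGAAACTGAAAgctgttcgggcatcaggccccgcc
Gbp7: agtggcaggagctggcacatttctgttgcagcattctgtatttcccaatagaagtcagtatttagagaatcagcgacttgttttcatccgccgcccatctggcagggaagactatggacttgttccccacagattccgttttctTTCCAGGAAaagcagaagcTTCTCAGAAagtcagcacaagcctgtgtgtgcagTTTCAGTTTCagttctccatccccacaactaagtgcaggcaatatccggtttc
Irf1: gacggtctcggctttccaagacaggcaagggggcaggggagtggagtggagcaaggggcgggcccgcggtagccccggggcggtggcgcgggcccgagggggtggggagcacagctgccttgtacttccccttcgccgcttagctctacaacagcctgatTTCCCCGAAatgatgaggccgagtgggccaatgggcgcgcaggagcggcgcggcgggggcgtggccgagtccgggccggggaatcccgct
Ifit3: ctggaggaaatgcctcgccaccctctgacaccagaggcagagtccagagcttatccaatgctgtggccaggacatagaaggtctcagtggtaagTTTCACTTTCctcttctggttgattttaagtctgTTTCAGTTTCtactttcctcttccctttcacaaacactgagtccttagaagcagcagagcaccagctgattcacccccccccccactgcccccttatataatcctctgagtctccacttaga
Socs1: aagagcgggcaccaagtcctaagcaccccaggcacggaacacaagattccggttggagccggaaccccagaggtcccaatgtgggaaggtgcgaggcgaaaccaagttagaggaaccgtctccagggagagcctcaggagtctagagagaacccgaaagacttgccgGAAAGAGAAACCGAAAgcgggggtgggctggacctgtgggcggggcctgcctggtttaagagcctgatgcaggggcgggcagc

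The ISRE core began 59 bases before the Gbp2 start, 34 bases before the Igtp start and 53 bases before the Gbp7 start. Ifit3 had 2 ISRE cores, 156 and 122 bases before its start, and Socs1 had 2 that overlap, 83 and 77 bases before its start. GAS cores lay 45 bases before the Igtp start, 106 and 87 bases before the Gbp7 start and 90 bases before the Irf1 start. Counted per gene over all its starts, an ISRE core was found in 3.46% of the 27025 genes with a promoter and a GAS core in 8.13%. Of the 422 genes with a promoter that were higher in members than in other AE2 cells, as tested below, 11.1% held an ISRE core and 10.9% a GAS core, against 3.11% and 7.02% of the 7517 tested genes with a promoter. Neither core lay in the windows of Tap1 and Cd274, described below, and the second of the 2 RefSeq starts of Irf1 had none either. A match is a description of letters, not of binding.

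Members were spread over both ages but not evenly. They made up 69 of 1224 AE2 cells in old LPS 1 (5.64%, 95% exact interval 4.41 to 7.08%) and 103 of 1239 in old LPS 2 (8.31%, 6.84 to 9.99%). In young LPS 1 they were 285 of 785 (36.3%, 32.9 to 39.8%), and in young LPS 2 they were 267 of 930 (28.7%, 25.8 to 31.7%). The shares averaged 6.98 ± 1.89% in old and 32.5 ± 5.37% in young mice (SD, n = 2 each), the old tables did not overlap the young ones, and the difference was -25.5 percentage points. An exact two-sided permutation test gave p = 0.333, the smallest that 2 tables against 2 allow. With the same limits, 3 of 4050 AE2 cells of saline-treated mice passed: 0 of 1063 in old control 1, 1 of 1098 in old control 2 (0.0911%), 2 of 743 in young control 1 (0.269%) and 0 of 1146 in young control 2. Taken as 3 cells of the total, a count of 0 allows a share of up to 0.282% and 0.262% in the 2 tables without such a cell. The upper ends of their 95% exact intervals were 0.346% and 0.321%. These intervals cover counting error only.

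**Figure D1:**
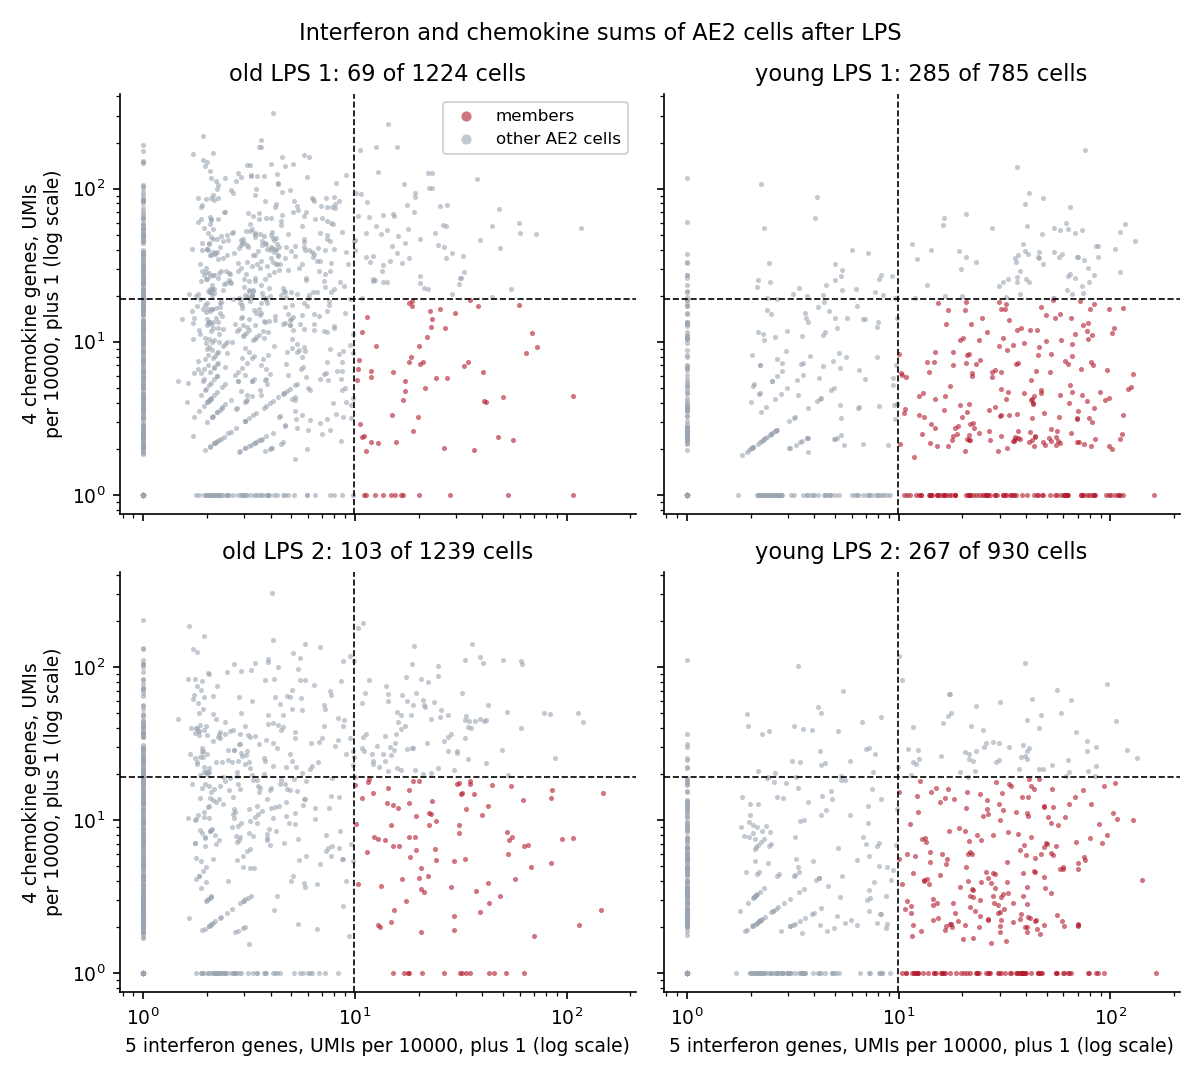
Each point is 1 AE2 cell after LPS, in the 2 old tables on the left and the 2 young tables on the right. The x axis is the sum of Iigp1, Gbp2, Igtp, Gbp3 and Gbp5 and the y axis the sum of Cxcl1, Cxcl5, Csf2 and Ccl20, both in UMIs per 10000 plus 1 on a log scale, with dashed lines at the limits, and the red members lie below the chemokine limit and right of the interferon limit without a gap to the other cells.

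The members are a range of a score and not a separate type of cell. The interferon limit was 8.88 UMIs per 10000, the lowest member had 8.96 and the highest cell below the limit 8.85, and 19 members lay within 10% above it while 27 cells lay within 10% below it. The members' sum had a median of 29.2 per 10000 (quartiles 17.0 and 48.4, highest 164), against 0.923 in the other AE2 cells. By table the members' median was 18.9 and 23.2 in old mice and 34.1 and 29.0 in young mice. All 5 genes were detected in 275 members, at least 3 in 661 and only 1 in 9, and a member held a median of 25 UMIs of the 5 genes (lowest 2). The chemokine limit was 18.0 per 10000, with 23 members within 10% below it, and 187 members (25.8%) had no chemokine UMI.

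The chemokine condition removed different shares of interferon-rich cells at the 2 ages. Of the 1045 AE2 cells above the interferon limit, 321 were also above the chemokine limit. Of the cells above the interferon limit 53.4% and 49.3% in old tables were above the chemokine limit too, against 37.5% and 23.4% of the remaining AE2 cells, and in young tables the shares were 20.8% and 20.1% against 9.65% and 6.21%. With each cell thinned to 3000 UMIs the shares were 47.1% and 51.2% against 37.6% and 24.5% in old tables, and 20.9% and 19.8% against 8.48% and 7.13% in young tables. Across AE2 cells of a table, Spearman's rho between the sums was 0.231 and 0.483 in old and 0.264 and 0.353 in young mice, where all cells of a table share a library and each cell's depth enters both sums. Without the chemokine condition the share of AE2 cells averaged 14.2 ± 3.04% in old and 40.9 ± 7.03% in young tables.

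Cell type markers that did not split members from the other AE2 cells were summed in both classes. The AE2 markers include Sftpc, Lamp3, Abca3, Slc34a2, Napsa, Lpcat1 and Etv5, which chose the AE2 cells, so their presence follows from the gate. The gate also left out cells with Ptprc, so low counts of immune cell markers are in part fixed by it. The sum of 11 AE2 markers, Sftpc among them, stood at 86351 and 99567 CPM (UMIs per 1000000 UMIs) in old members and 114889 and 117597 CPM in young members, against 106264 and 165486 CPM in the other old AE2 cells and 150636 and 161301 CPM in the other young AE2 cells. Alveolar macrophage markers stood between 75.4 and 86.0 CPM in members and between 58.1 and 71.2 CPM in the other cells, with Marco and Siglecf at 0 in members. Endothelial markers, with Kdr and Vwf at 0, stood at 35.3 and 32.9 CPM in old members and 26.6 and 18.9 CPM in young members, against 27.8 and 21.1 CPM in other old and 24.6 and 16.2 CPM in other young AE2 cells. Like those of alveolar macrophages they were higher in members in 4 of 4 tables, as were dendritic cell markers at 3 to 8 UMIs and neuroendocrine markers at 1 to 4 UMIs per table. Their part in the results was not tested. B cell markers gave 32 to 158 UMIs per table, with Cd79a, Ms4a1 and Ighm at 0. Platelet markers gave 145 to 315, with Ppbp and Gp9 at 0. T cell and natural killer cell markers gave 0 to 2 UMIs per table, and every fibroblast, mesothelial, erythroid and mast cell marker was at 0 in members. Club cell markers stood at 2447 and 1971 CPM in old members and 573 and 432 CPM in young members, against 2718 and 4600 CPM in other old and 816 and 889 CPM in other young AE2 cells. Ciliated cell markers stood at 25.7 and 21.3 CPM in old members and 72.2 and 62.3 CPM in young members, against 61.0 and 75.3 CPM in other old and 51.3 and 37.7 CPM in other young AE2 cells. Without the 3% of barcodes with the highest doublet scores in each lane they stood at 24.9 and 20.6 CPM in old members and 21.5 and 21.97 CPM in young members, against 29.9 to 37.9 CPM in the other cells. Free RNA and doublets had not been removed.

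Members held more UMIs per cell than the other AE2 cells in 3 of 4 tables. The median was 8888 and 10308 UMIs per cell in old members and 8155 and 9377 in young members, against 9074 and 8914 in other old and 7373 and 7900 in other young AE2 cells. At 3000 UMIs per cell, members had a median of 1119 to 1135 detected genes and the other cells 1087 to 1107. The mitochondrial share was near 6% in both. Within a table no barcode occurred more than once, and 2 barcodes occurred in tables of both lanes.

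Of the interferon genes that chose the members, Iigp1, an immunity-related GTPase (IRG) that acts on vacuoles of intracellular microbes, gave the most UMIs. It stood at 1408 and 1626 CPM in old members and 2015 and 1552 CPM in young members, against 104 and 177 CPM in other old AE2 cells, 404 and 228 CPM in other young AE2 cells and 3.604 CPM in control AE2 cells. It was seen in 95.7% to 99.3% of members, against 21.7% to 34.2% of the other AE2 cells of the same tables. Gbp2, a guanylate-binding protein (GBP), stood at 793 and 959 CPM in old members and 1404 and 1142 CPM in young members, against 147 and 142 CPM in other old and 422 and 244 CPM in other young AE2 cells. Igtp, another IRG, stood at 225 and 319 CPM in old members and 457 and 395 CPM in young members, against 33.0 and 39.5 CPM in other old and 109 and 82.9 CPM in other young AE2 cells. Igtp and Irgm2 overlap on the same strand, so their UMIs are uncertain.

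To describe a rule gene apart from its own count, members were chosen again without it. Iigp1 was then 8.05 and 7.58 times as high in old members as in other old AE2 cells and 4.29 and 5.59 times as high in young members. Gbp5 gave 4.65 and 7.49 in old and 2.93 and 4.06 in young members. The chemokine genes held out in the same way gave ratios of 0.632 to 1.71 for Cxcl1, which attracts neutrophils, and 0.540 to 1.02 for Csf2, which encodes the growth factor GM-CSF that AE2 cells supply to macrophages.

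Across single AE2 cells, genes whose level ran closely with the 5-gene sum were, in falling order from the highest, Psmb8, Tap1, Ifi47, Isg15, Psmb9, Irgm1 and Psmb10. Their Spearman's rho, averaged over the 4 tables and taken over 5991 genes detected in at least 10% of cells, was 0.651 for Psmb8, 0.632 for Tap1, 0.621 for Ifi47 and 0.549 for Psmb10. The lowest values belonged to Sftpc (-0.423), Sftpb (-0.417) and Slc34a2 (-0.402), genes of the surfactant system. Sftpc and Slc34a2 also chose the AE2 cells, and the abundant Sftpc UMIs enter the total that divides the 5-gene sum. The part of this in these values was not tested. For Psmb8 rho was 0.435 and 0.648 in old and 0.774 and 0.744 in young tables. Cells of 1 table share their library, and the values are given as description.

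Within the cells below the chemokine limit, levels were also followed over 5 steps of the interferon sum: 0, up to 3, up to the limit, and the lower and upper part of the members. Irf1, a transcription factor of the pathway, stood at 46.0, 47.1, 74.1, 119.8 and 255 CPM over these steps in old LPS 1 and at 34.0, 45.8, 77.5, 145 and 342 CPM in young LPS 1. It went up at each step in 4 of 4 tables, as did Isg15, Ifit3, Tap1, Psmb8, H2-K1, H2-Ab1, Cd74 and Socs1. H2-Ab1, a class II chain, stood at 775, 995, 1312, 1501 and 2047 CPM in young LPS 1. Slc34a2, the phosphate transporter of AE2 cells, went down at each step in 4 of 4 tables, and stood at 4402, 3568, 3384, 3300.2 and 2525 CPM in young LPS 1. The acute phase gene Saa3 did neither in any table and stood at 5500, 7923, 12505, 7266 and 6446 CPM in young LPS 2. These genes were picked after their values had been seen, and the cells at 0 had a median of 6736 to 8040 UMIs.

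**Figure D2:**
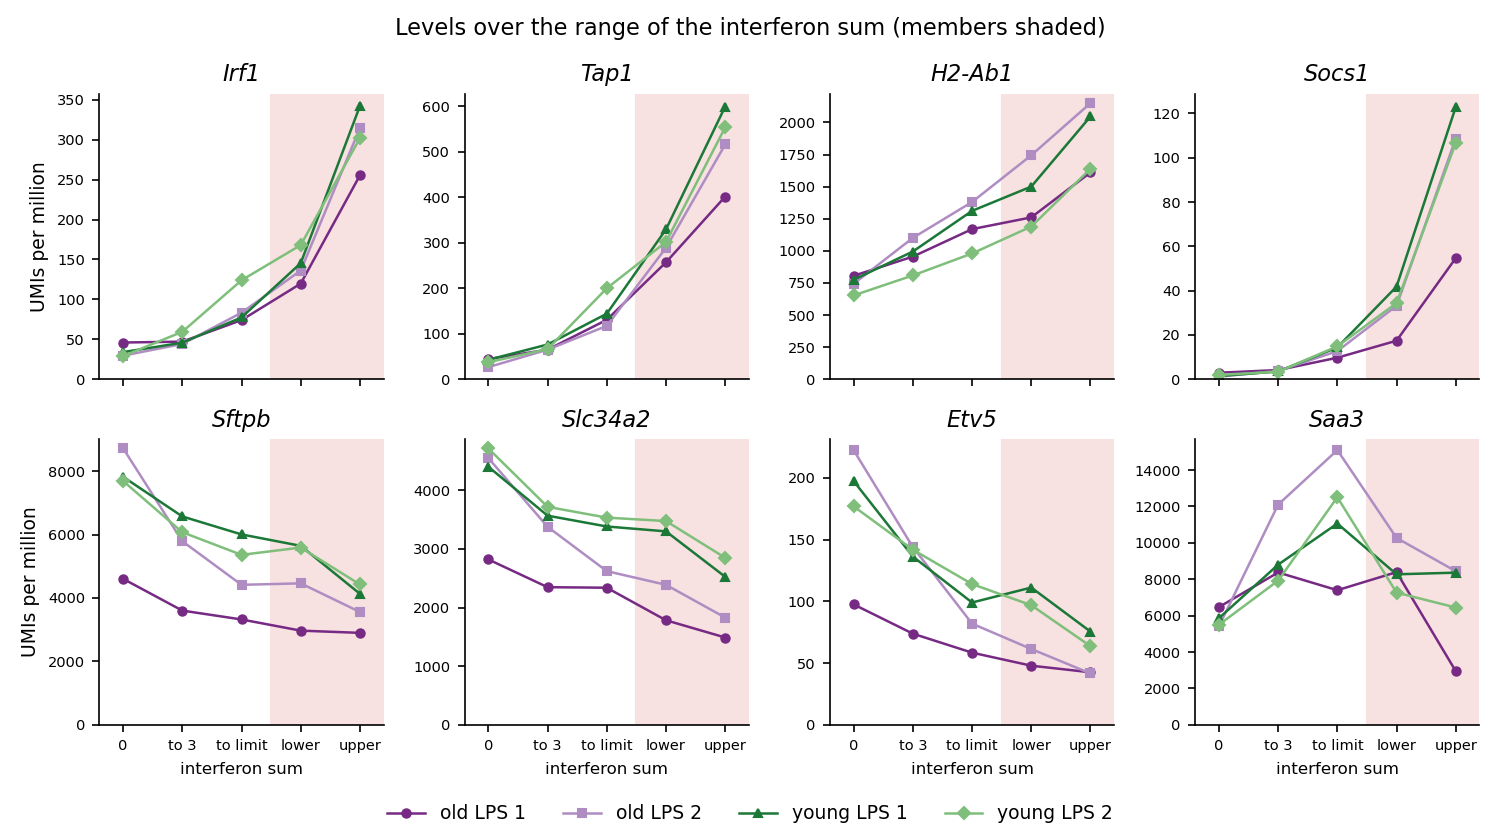
Level in CPM (y axis, linear) of 8 genes in cells below the chemokine limit, over 5 steps of the interferon sum (x axis), with 1 line per LPS table and the members shaded. Irf1, Tap1, H2-Ab1 and Socs1 go up at each step in all 4 tables, the surfactant-system genes Sftpb and Slc34a2 and the transcription factor gene Etv5 go down from the first step to the last, and Saa3 is highest in the third step in 3 tables.

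Members were next compared with all other AE2 cells of the same table. These other cells include those above both limits, which are rich in the interferon genes too. They were 79 of 1155 and 100 of 1136 other cells in old tables, and 75 of 500 and 67 of 663 in young tables. UMIs were summed per table and class and fitted with edgeR's quasi-likelihood test with the table as a block, and p-values were adjusted by Benjamini-Hochberg over all 9411 genes. At an adjusted p under 0.05, 10.4% of them differed, 532 higher (5.65%) and 450 lower (4.78%) in members. The 4 member values lay wholly above the 4 values of the other cells for 4.45% of genes and wholly below them for 2.61%. The members had been split by 5 interferon and 4 chemokine genes in the same cells, so that genes varying with those across cells had to differ, and the p-values say how repeatable a difference was over tables. Counts per list are therefore read beside those shares, and beside the median log2 fold change over all genes, -0.02. In the sentences below, CPM values are normalised levels, "old members" and "young members" are followed by the values of their 2 tables in the order of the lanes, and ± after a log2 fold change is its approximate SE.

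Among the GTPases that the rule did not use, 3 of 4 tested GBP genes and 8 of 8 tested IRG genes were higher in members, none was lower, and the list medians were 1.96 and 2.07 on the log2 scale. The 8 include Irgm2, which overlaps the rule gene Igtp on the same strand, so its count may not be independent of the rule. Gbp7 (ENSMUSG00000040253, chr3:142530342-142550149, plus strand), whose promoter with ISRE and GAS cores is printed above, stood at 104 and 148 CPM in old members and 187 and 137 CPM in young members, against 18.5 and 20.4 CPM in other old and 46.8 and 29.6 CPM in other young AE2 cells. All members' values lay above all values of the other cells, and the log2 fold change was 2.36 ± 0.11 (adjusted p = 7.70e-13). Control AE2 cells averaged 2.34 CPM. Gbp6 stood at 9.77 and 9.57 CPM in old members and 23.2 and 16.0 CPM in young members, against 1.27 and 2.37 CPM in other old and 8.06 and 3.08 CPM in other young AE2 cells (2.02 ± 0.27, adjusted p = 1.50e-06). Gbp4 missed the threshold (1.88 ± 0.46, adjusted p = 0.113), with 3.26 CPM in members of old LPS 1 and 41.6 to 60.7 CPM in the other 3. Gbp6 overlaps Gbp10, and Gbp4, Gbp8 and Gbp9 overlap, so their UMIs are uncertain.

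By size of effect, the IRG-related genes F830016B08Rik (2.95 ± 0.25) and Gm4951 (2.63 ± 0.13, adjusted p = 1.51e-15) were among the 8 largest rises. Irgm1, an IRG that controls the others and autophagy, stood at 231 and 253 CPM in old members and 384 and 326 CPM in young members, against 47.8 and 53.6 CPM in other old and 137 and 99.6 CPM in other young AE2 cells. The groups did not overlap, and the log2 fold change was 1.88 ± 0.14 (adjusted p = 4.70e-05). Ifi47, a further IRG, stood at 219.7 and 290.1 CPM in old members and 353 and 301 CPM in young members, against 44.5 to 102 CPM in the other AE2 cells (2.11 ± 0.10, adjusted p = 1.16e-12). Ifi47, Tgtp1 and their neighbours overlap Olfr56, and Tgtp1 is nearly identical to Tgtp2, so Tgtp1 (1.98 ± 0.31, adjusted p = 0.00437) is uncertain.

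In the list of STAT and IRF transcription factors, which also holds Ciita, Nlrc5 and genes of the BATF and SP100 families, 10 of 17 tested genes were higher in members and none was lower. Stat2 (ENSMUSG00000040033, chr10:128270559-128292849, plus strand), part of the ISRE-binding complex, stood at 65.1 and 53.6 CPM in old members and 73.6 and 68.5 CPM in young members, against 24.96 and 20.5 CPM in other old, 32.0 and 38.8 CPM in other young and a mean of 8.53 CPM in control AE2 cells. The 4 member values lay above all others, and the log2 fold change was 1.14 ± 0.12 (adjusted p = 1.25e-08). Irf9, also of that complex, did not pass (0.29, adjusted p = 0.314), nor did Stat3 (0.19, adjusted p = 0.183).

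Irf1, an interferon target that itself drives interferon genes and whose GAS core is shown above, stood at 158 and 209 CPM in old members and 265 and 232 CPM in young members, against 60.2 and 58.3 CPM in other old and 98.3 and 95.4 CPM in other young AE2 cells. The groups did not overlap, and the log2 fold change was 1.48 ± 0.08 (adjusted p = 7.88e-14). Irf7, the factor that amplifies type I interferon, stood at 168 and 158 CPM in old members and 131 and 109 CPM in young members, against 45.0 and 33.1 CPM in other old and 58.6 and 46.9 CPM in other young AE2 cells (1.60 ± 0.23, adjusted p = 0.0220, and 0.127 without old LPS 1). No Irf7 value of the other cells reached the members'. Ciita, the master regulator of class II genes, averaged 90.6 ± 16.9 CPM in members and 28.3 ± 7.31 CPM in the other cells (1.68 ± 0.10, adjusted p = 1.08e-13), and Nlrc5, its counterpart for class I genes, 19.99 ± 2.48 CPM in members and 7.89 ± 2.24 CPM in the other cells (1.32 ± 0.20, adjusted p = 1.17e-05).

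Of the antiviral interferon-stimulated genes, 33 of 38 tested were higher in members and none was lower (list median 1.27). Zbp1, a sensor of nucleic acids that can trigger cell death, stood at 229.5 and 259 CPM in old members and 314 and 271 CPM in young members, against 97.8 and 82.3 CPM in other old, 133 and 86.7 CPM in other young and 3.05 CPM in control AE2 cells. Members and other cells did not overlap (1.45 ± 0.08, adjusted p = 3.84e-14). Bst2, which tethers budding virus to the cell surface, averaged 801 ± 99.4 CPM in members and 398 ± 82.4 CPM in the other cells (1.02 ± 0.06, adjusted p = 3.53e-13). Usp18, which removes ISG15 from proteins and dampens type I interferon signalling, averaged 127 ± 28.8 CPM in members and 40.1 ± 15.2 CPM in the other cells (1.68 ± 0.11, adjusted p = 1.98e-10).

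Several known ISRE genes varied between tables. Ifit3, an RNA-binding antiviral protein with both ISRE cores shown above, stood at 153 and 134 CPM in old members and 113 and 59.2 CPM in young members, against 20.7 and 8.08 CPM in other old and 20.2 and 16.0 CPM in other young AE2 cells. It had no overlap and a log2 fold change of 2.84 ± 0.43, but an adjusted p of 0.0488, and leaving out old LPS 1 or young LPS 1 took it to 0.164 and 0.135. Its relative Ifit1 (2.40 ± 0.37, adjusted p = 0.0374) and Rsad2, the antiviral enzyme viperin (2.16 ± 0.35, adjusted p = 0.0183), likewise lost the call without old LPS 1, at 0.0850 and 0.134, and Ifit1 also without young LPS 2, at 0.130. Isg15, a ubiquitin-like modifier, stood at 815 and 919 CPM in old members and 739 and 649 CPM in young members, against 316 and 178 CPM in other old and 308 and 232 CPM in other young AE2 cells, did not overlap, and missed the threshold (1.62 ± 0.25, adjusted p = 0.0506).

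**Figure D3:**
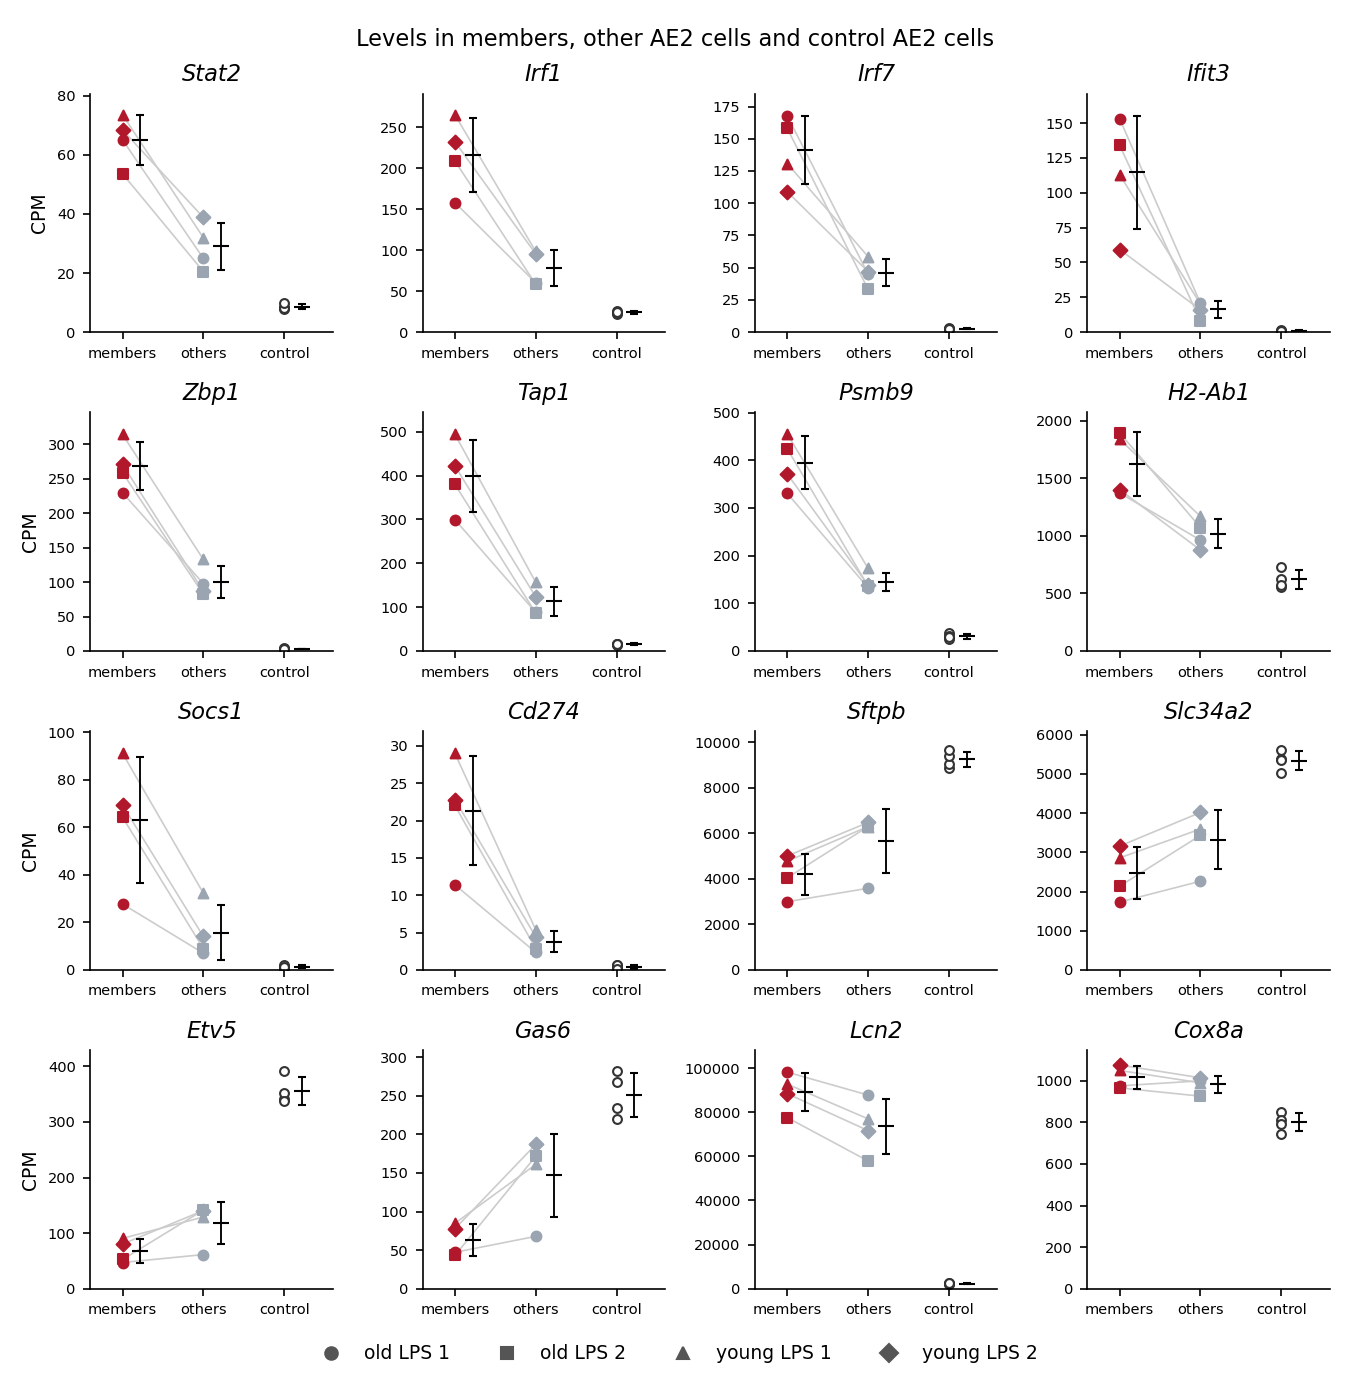
Normalised level in CPM (y axes from 0, linear) of 16 genes in members, other AE2 cells and control AE2 cells, with 1 point per table, grey lines joining the classes of a table, and bars for mean ± SD (n = 4). Members lie above the other cells for Stat2, Irf1, Irf7, Ifit3, Zbp1, Tap1, Psmb9, H2-Ab1 and Cd274 without overlap, and below the other cells of the same table for Sftpb, Slc34a2, Etv5 and Gas6, while Cox8a, a subunit of the respiratory chain, is similar in both classes.

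The antigen presentation machinery was higher in members nearly throughout: 21 of 22 tested class I genes and 7 of 7 tested class II genes, with list medians of 0.98 and 0.67. Tap1 (ENSMUSG00000037321, chr17:34187553-34197225, plus strand), which pumps peptides to class I molecules, stood at 299.5 and 380.1 CPM in old members and 494 and 422 CPM in young members, against 88.1 and 86.4 CPM in other old and 157 and 124 CPM in other young AE2 cells. No value of the other cells reached the members' (1.83 ± 0.08, adjusted p = 4.90e-17). Tap1 and Psmb9 overlap on opposite strands. The immunoproteasome subunits Psmb8 (1.28 ± 0.06, adjusted p = 3.43e-15), Psmb9 (1.45 ± 0.07, adjusted p = 5.01e-16) and Psmb10 (1.30 ± 0.07, adjusted p = 2.35e-15) were all higher. The class I light chain B2m averaged 1319.5 ± 169.7 CPM in members and 792 ± 99.4 CPM in the other cells (0.74 ± 0.05, adjusted p = 2.34e-12), and the heavy chain H2-K1 2976 ± 445 CPM in members and 2128 ± 281 CPM in the other cells (0.48 ± 0.05, adjusted p = 4.23e-09). The chaperone Canx was the 1 tested class I gene that did not pass (-0.11, adjusted p = 0.429).

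H2-Ab1, already at 623 CPM in control AE2 cells, stood at 1374 and 1897 CPM in old members and 1841 and 1403 CPM in young members, against 964 and 1073 CPM in other old and 1169.7 and 877 CPM in other young AE2 cells. The groups did not overlap (0.67 ± 0.05, adjusted p = 4.87e-11). H2-DMa, which loads peptides on class II molecules, had a larger log2 fold change (1.01 ± 0.07, adjusted p = 1.06e-11), and Cd74, the invariant chain and most abundant member of the list by UMIs, a smaller one: 7052 ± 672 CPM in members and 5562 ± 477 CPM in the other cells (0.34 ± 0.05, adjusted p = 3.92e-06).

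Few receptor genes passed. Of 9 tested receptor and kinase genes 3 were higher, with small effects: the receptor chains Ifnar2 (0.31 ± 0.08, adjusted p = 0.00819) and Il10rb (0.28 ± 0.08, adjusted p = 0.0236), and the kinase Jak2 (0.50 ± 0.16, adjusted p = 0.0365). Jak2 lost the call in each of the 4 fits with 1 table left out, and the other 2 in at least 1 of them. Ifngr1, which binds interferon gamma, stood at 97.7 and 79.5 CPM in old members and 50.9 and 58.8 CPM in young members, against 80.2 and 51.9 CPM in other old and 51.3 and 46.9 CPM in other young AE2 cells, and did not pass (0.30 ± 0.10, adjusted p = 0.0589). None of the 9 interferon ligand genes of the tables had enough counts to be tested.

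Feedback inhibitors split. Socs1, the inhibitor of JAK kinases with 2 ISRE cores shown above, stood at 27.7 and 64.2 CPM in old members and 91.0 and 69.3 CPM in young members, against 7.02 and 8.97 CPM in other old and 32.2 and 14.03 CPM in other young AE2 cells. Members of old LPS 1 lay below the other cells of young LPS 1, but within each table the members were higher (2.09 ± 0.19, adjusted p = 5.13e-06). Socs2, the inhibitor tied to growth hormone signalling, was lower: 326 and 277 CPM in old members and 363 and 293 CPM in young members, against 363 and 409 CPM in other old and 451 and 445 CPM in other young AE2 cells (-0.42 ± 0.07, adjusted p = 6.68e-05). Of 10 tested feedback genes 4 were higher and 2 lower.

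Of the immune effectors that interferon gamma is known to induce, 12 of 13 tested were higher. Cd274 (ENSMUSG00000016496, chr19:29367455-29388095, plus strand), which encodes the checkpoint ligand PD-L1, stood at 11.4 and 22.02 CPM in old members and 29.0 and 22.8 CPM in young members, against 2.34 and 2.86 CPM in other old, 5.37 and 4.42 CPM in other young and 0.448 CPM in control AE2 cells. Every member value lay above every other value (2.52 ± 0.22, adjusted p = 3.60e-10). The death ligand gene Tnfsf10 (TRAIL) averaged 58.0 ± 8.67 CPM in members and 13.3 ± 2.72 CPM in the other cells (2.12 ± 0.13, adjusted p = 3.73e-13). A separate list of cell death genes (pyroptosis and necroptosis) had 4 of 7 tested genes higher. Mlkl, the executioner of necroptosis, stood at 30.9 and 30.6 CPM in old members and 15.6 and 17.6 CPM in young members, against 4.998 to 10.5 CPM in the other cells (1.65 ± 0.24, adjusted p = 2.34e-05). The T cell attractant Cxcl10 ranged more widely: 205 and 475 CPM in old members and 232 and 73.3 CPM in young members, against 43.6 and 24.0 CPM in other old and 52.1 and 28.1 CPM in other young AE2 cells. Its groups did not overlap, but it missed the threshold (2.65 ± 0.63, adjusted p = 0.130). Cxcl10 was 1 of 2 tested genes of a further list, the interferon-induced CXC chemokines, of which Cxcl16 was higher (0.70).

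Of the lists of the LPS response outside interferon, 5 of 15 genes for LPS and interleukin-1 sensing, 5 of 19 for NF-kappaB and 7 of 19 acute phase genes were higher, and 2 acute phase genes lower. The NF-kappaB list had a median log2 fold change of 0.33, and its count depended on the chemokine condition of the rule. With members taken without that condition 14 of 19 were higher, at a median of 0.62. With chemokine-high cells left out of the other cells 12 of 18 were higher, at a median of 0.69. Tlr2, a receptor for bacterial lipoproteins, averaged 14.6 ± 5.22 CPM in members and 5.77 ± 2.32 CPM in the other cells (1.39 ± 0.23 on the log2 scale), while the LPS receptor gene Tlr4 did not pass (-0.25). Lcn2, which withholds iron from bacteria, was high in both classes: 98151 and 77564 CPM in old members and 92730.3 and 88385 CPM in young members, against 87759 and 57904 CPM in other old and 76981 and 71669 CPM in other young AE2 cells (0.29 ± 0.04, adjusted p = 5.37e-06). Saa3 (-0.27 ± 0.05, adjusted p = 0.000176) and lysozyme, Lyz2 (-0.33 ± 0.04, adjusted p = 5.68e-07), were lower in members. For Saa3 the other cells include chemokine-high cells, where it was higher, as given below. Below the chemokine limit, the lower and upper part of the members had 8392 and 2949 CPM in old LPS 1. They had 10272 and 8442 CPM in old LPS 2. In young LPS 1 they had 8271 and 8362 CPM, and in young LPS 2 7266 and 6446 CPM. The cells at 0 had 6469 and 5421 CPM in old and 5859 and 5500 CPM in young tables. Cxcl2, a neutrophil chemokine that the rule did not use, did not pass (-0.21, adjusted p = 0.663).

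Where genes of the AE2 cell's surfactant system passed, they were lower in members, with 1 exception. Of 16 tested surfactant and lamellar body genes 10 were lower and 1 higher, with a list median of -0.27. The lower genes include Slc34a2, Lpcat1, Abca3, Napsa and Lamp3, which the rule used to choose AE2 cells, so the count is not independent of the gate. The lower genes outside the gate were Scd1, Sftpb, Lyz2, Sftpa1 and Atp8a1. Sftpb, a surfactant protein needed for the lipid film, stood at 2997 and 4047 CPM in old members and 4776 and 5006 CPM in young members, against 3587 and 6299.6 CPM in other old and 6299 and 6479.9 CPM in other young AE2 cells. The groups overlapped between tables and were ordered alike within each table (-0.42 ± 0.05, adjusted p = 5.32e-07). Slc34a2 (-0.44 ± 0.05, adjusted p = 5.63e-07) and Abca3, the lipid pump of lamellar bodies (-0.48 ± 0.08, adjusted p = 0.000864), were lower too, though both helped to choose AE2 cells. The 1 higher gene was Cd63, a membrane protein of lysosomes and lamellar bodies (0.28 ± 0.05).

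Sftpc, which set the AE2 gate, stood at 42165 and 30434 CPM in old members and 34540.0 and 41056 CPM in young members, against 49764 and 82136 CPM in other old, 57540.3 and 72778 CPM in other young and a mean of 234734 CPM in control AE2 cells. Members lay wholly below the other cells, yet the difference missed the threshold (-0.81 ± 0.24, adjusted p = 0.188). The gate touches the members unevenly. Among otherwise like cells with Sftpc between 0.2% and 1%, which were not AE2 cells by the rule, 3 of 55 (5.45%) and 20 of 176 (11.4%) in old tables and 87 of 204 (42.6%) and 87 of 169 (51.5%) in young tables passed the interferon and chemokine limits.

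Transcription factors of alveolar identity followed the same direction in 5 of 15 tested genes, with 1 higher. Etv5, a factor that maintains AE2 cells and also part of the AE2 gate, stood at 47.2 and 52.7 CPM in old members and 90.6 and 80.5 CPM in young members, against 61.4 and 141 CPM in other old and 129 and 141 CPM in other young AE2 cells (-0.79 ± 0.12, adjusted p = 9.58e-05). Cebpa, not used by the rule, averaged 70.05 ± 21.3 CPM in members and 114 ± 27.8 CPM in the other cells (-0.69 ± 0.10, adjusted p = 6.51e-06), and Nkx2-1, the lineage factor of lung epithelium, was lower too (-0.25 ± 0.07), a call lost in 3 of the 4 fits with 1 table left out. Of 20 tested genes of fatty acid and phospholipid synthesis 8 were lower and 1 higher. Scd1, the stearoyl-CoA desaturase, averaged 1043 ± 317 CPM in members, 1455 ± 440.0 CPM in the other cells and 6075 CPM in control AE2 cells (-0.48 ± 0.06, adjusted p = 5.25e-07), and Fasn, the fatty acid synthase, was lower by a similar amount (-0.38 ± 0.07, adjusted p = 0.000139).

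The genes with the largest falls were Kcne2, Gas6, Pon1, Fmo2, Fam189a2, Lgi3, Tcea3 and Tspan2. Kcne2 (ENSMUSG00000039672, chr16:92292389-92298129, plus strand), a potassium channel subunit, stood at 6.51 and 3.83 CPM in old members and 7.14 and 7.61 CPM in young members, against 11.1 and 27.6 CPM in other old, 20.4 and 24.2 CPM in other young and 85.3 CPM in control AE2 cells (-1.73 ± 0.22, adjusted p = 7.94e-07). Gas6, the ligand of the TAM receptors that dampen inflammation, stood at 47.2 and 43.1 CPM in old members and 84.8 and 77.7 CPM in young members, against 67.9 and 172 CPM in other old and 161 and 187 CPM in other young AE2 cells (-1.21 ± 0.18, adjusted p = 0.00600). Without young LPS 2, Gas6 had an adjusted p of 0.0613 and Pon1 of 0.112, and without old LPS 1 Lgi3 had 0.110. The other AE2 cells of old LPS 1 had the lowest level of both genes among the other cells of the 4 tables.

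Transitional alveolar epithelium, the keratin-rich state between AE2 and alveolar type I cells, was represented by 15 tested genes, 3 of them higher: Krt8 (0.47 ± 0.08, adjusted p = 0.000332), Krt7 (0.37 ± 0.10) and Cldn4 (1.08 ± 0.35, adjusted p = 0.0429). Krt8 stood at 583 and 384 CPM in old members and 277 and 313 CPM in young members, against 381 and 245 CPM in other old and 264 and 212 CPM in other young AE2 cells, so that the difference in young LPS 1 was small. Krt7 and Cldn4 each lost the call in 2 of the 4 fits with 1 table left out. Of 9 tested alveolar type I markers 2 were higher and 1 lower, none of 34 nuclear respiratory chain genes and none of 4 tested cell cycle genes passed.

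**Figure D4:**
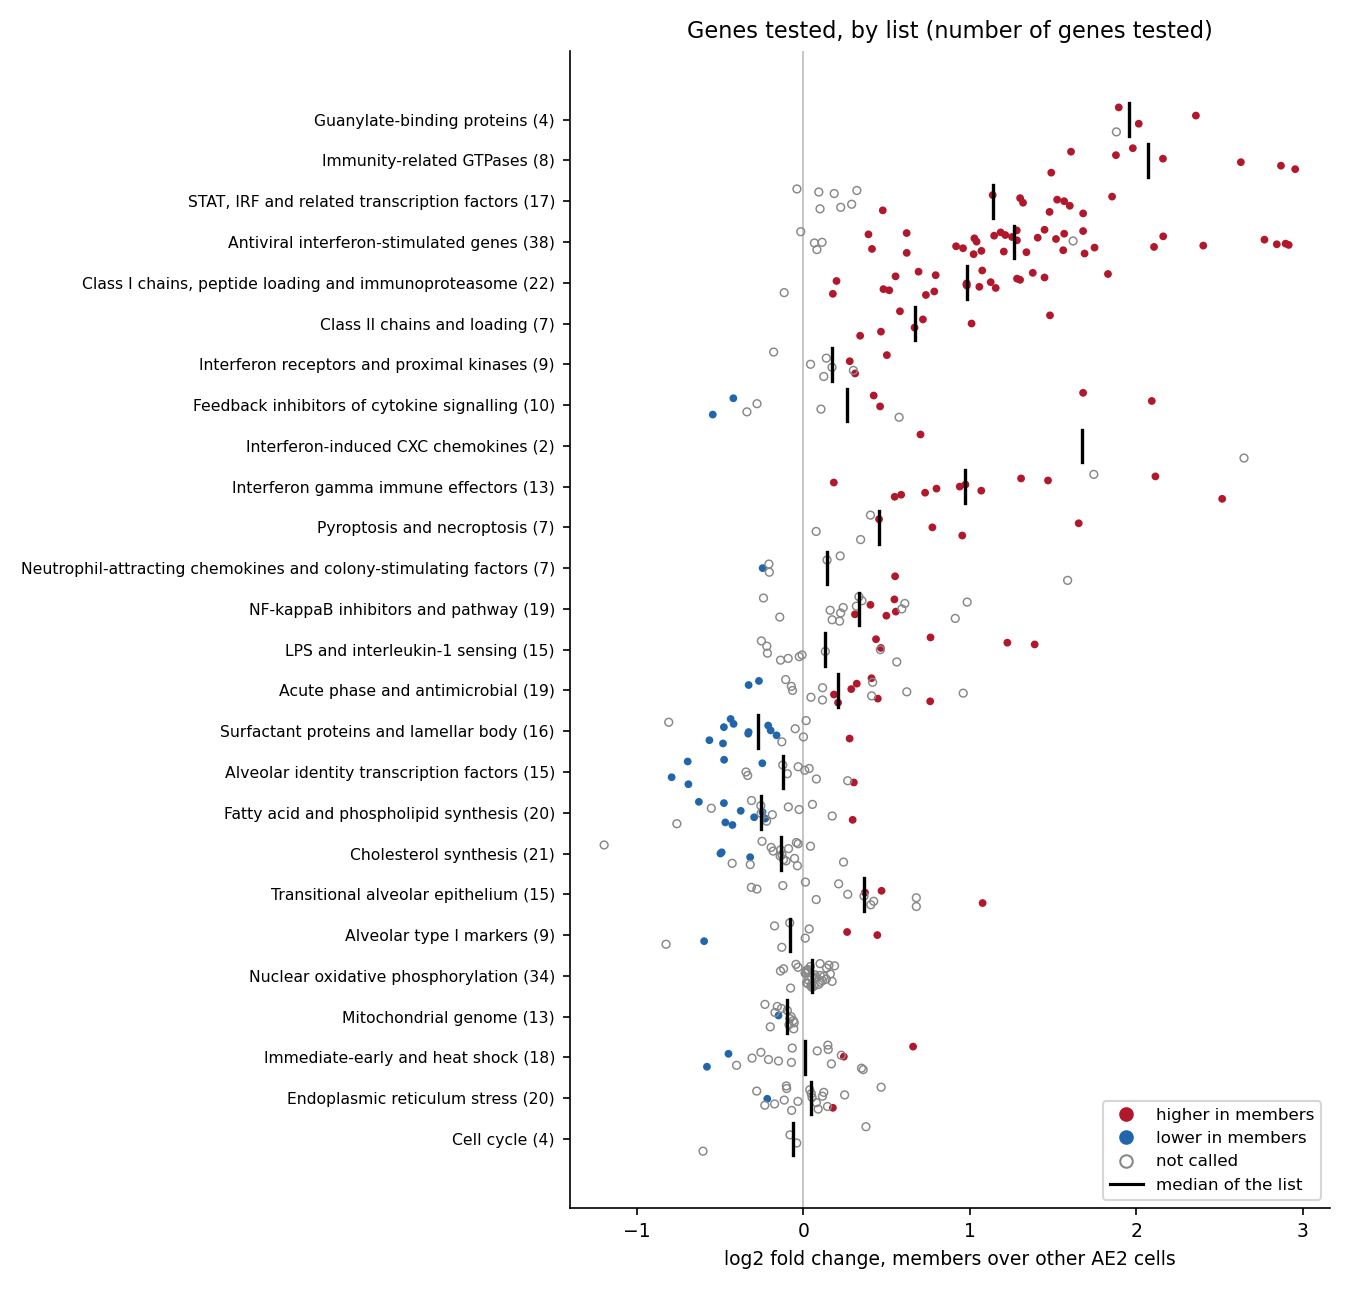
Log2 fold change of members over other AE2 cells (x axis) for each tested gene of 26 lists, with red points for genes higher in members, blue points for genes lower, open points for genes that did not pass, and a black bar at the list median. GTPase, antiviral and class I and II lists lie to the right, with medians of 0.67 to 2.07, and surfactant and fatty acid lists lie left of 0.

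A second comparison set members against the 724 chemokine-high AE2 cells, which were above the chemokine limit and below the interferon limit: 404 and 242 cells in old tables and 41 and 37 in young tables. Of 8099 tested genes 3.59% differed, 231 higher in members (2.85%) and 60 lower (0.741%), with the same dependence on the rule. All 4 tested GBP genes and all 7 tested IRG genes were higher in members, as were 10 of 15 genes of the STAT and IRF list (5 of them STAT or IRF genes), 29 of 35 antiviral genes, 18 of 22 class I genes and 6 of 7 class II genes. Socs1 stood at 27.7 and 63.9 CPM in old members and 90.3 and 69.0 CPM in young members, against 5.10 and 5.63 CPM in old and 0 and 9.94 CPM in young chemokine-high cells (3.20 ± 0.26, adjusted p = 6.92e-13).

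Of 18 tested acute phase genes 4 were lower in members and 1 higher, and of 18 NF-kappaB genes 1 was lower and none higher. Saa3 stood at 7072 and 9378 CPM in old members and 8319 and 6819 CPM in young members, against 12088 and 19072 CPM in old and 16086 and 12459 CPM in young chemokine-high cells. All 4 member values were below all chemokine-high ones (-0.91 ± 0.06, adjusted p = 4.54e-16). Slpi, a protease inhibitor of airway fluid (-0.42 ± 0.07, adjusted p = 1.32e-05), and Fabp5, a fatty acid carrier (-0.64 ± 0.06, adjusted p = 1.71e-10), were lower in members in 4 of 4 tables. Ifitm2 was the 1 antiviral gene that was lower, at 426 and 461 CPM in old members and 528 and 482 CPM in young members, against 568 and 576 CPM in old and 556 and 623 CPM in young chemokine-high cells (-0.30 ± 0.08, adjusted p = 0.0114). That call was lost without old LPS 1 or old LPS 2, at 0.172 and 0.153. Nfkb1 was lower (-0.57 ± 0.14, adjusted p = 0.00897), a call lost without young LPS 2 (adjusted p = 0.147), and Lcn2 did not pass (0.03).

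Few surfactant genes passed in this comparison. Sftpc stood at 42232 and 30298 CPM in old members and 34258 and 40927 CPM in young members, against 39894 and 38527 CPM in old and 37194 and 38223 CPM in young chemokine-high cells (-0.07, adjusted p = 0.743). Of 16 surfactant genes 3 were lower: Lyz2, Sftpa1 and Slc34a2. Each of them lost the call in 3 of the 4 fits with 1 table left out. Of 14 tested genes of the transitional list 6 were higher, among them Cdkn1a, the cell cycle inhibitor p21, at 112 and 103 CPM in old members and 140.3 and 108 CPM in young members, against 71.5 and 49.0 CPM in old and 73.0 and 99.4 CPM in young chemokine-high cells (0.75 ± 0.13, adjusted p = 8.51e-05). The call for Cdkn1a was lost without old LPS 2, at an adjusted p of 0.0575.

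Old members were then compared with young members over 8227 genes, 2 tables a side, with both lanes at each age. Of these 2.97% differed, 132 higher (1.6%) and 112 lower (1.36%) in old members. With 2 tables a side 22.4% of genes lay wholly above and 23.5% wholly below in old members, so that lack of overlap alone says little here. Members of both ages had passed the same limit on the interferon sum, which bears on every gene that runs with that sum. A lack of calls among such genes therefore says little about age. None of 5 tested GBP genes, 16 genes of the STAT and IRF list or 8 class II genes passed, 1 of 9 IRG genes was lower and 1 of 22 class I genes higher. Irgm1 stood at 234 and 254 CPM in old members, against 385 and 329 CPM in young members (-0.54 ± 0.13, adjusted p = 0.0295), and 2 of the 4 fits with 1 table left out did not call it.

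Antiviral genes had 5 of 38 higher in old members and none lower. Ifit1 stood at 87.2 and 129 CPM in old members, against 47.9 and 40.0 CPM in young members (1.35 ± 0.19, adjusted p = 0.000335). Rsad2 was higher by 0.98 ± 0.20, a call lost without old LPS 2 (adjusted p = 0.123). Irf1, Irf7 and Tap1 did not pass, at log2 fold changes of -0.41, 0.44 and -0.42.

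The called chemokine and NF-kappaB genes were all higher in old members. Ccl2, which attracts monocytes, stood at 186 and 227 CPM in old members, against 3.14 and 3.23 CPM in young members (6.00 ± 0.23, adjusted p = 6.83e-12). Cxcl2 stood at 1274 and 1133 CPM in old members, against 429 and 287 CPM in young members (1.75 ± 0.16, adjusted p = 6.56e-06). Csf3, the granulocyte growth factor, stood at 64.2 and 103 CPM in old members, against 4.93 and 15.7 CPM in young members (3.04 ± 0.39, adjusted p = 0.00318). The list of neutrophil chemokines and colony-stimulating factors also holds Ccl2. In that list 3 of 7 tested genes (Ccl2, Cxcl2 and Csf3) were higher in old members and none was lower. Of 19 tested NF-kappaB genes 6 were higher in old members and none was lower. Nfkbia, the NF-kappaB inhibitor and target, stood at 1007 and 832 CPM in old members, against 488 and 476 CPM in young members (0.93 ± 0.13, adjusted p = 0.000351). Cd14, the LPS co-receptor, stood at 2225 and 2537 CPM in old members, against 1379 and 1239 CPM in young members (0.86 ± 0.13, adjusted p = 0.000729). The rule's own chemokine sum had medians of 4.59 and 5.83 in old members and 1.73 and 2.15 in young members, in the unit of its limit. The part of that shift in these differences was not tested. In the interaction of class and age, described below, none of these 7 and none of these 19 listed genes passed. The age differences of these lists are therefore not shown to be particular to members.

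Further genes named by size or list were higher in old members as well. Other AE2 cells were not compared between ages here. In the interaction of class and age, described below, 1 of 15 transitional genes passed, Areg. Of 19 acute phase genes, a list that holds Il4i1, 1 passed, Fgg. The age differences of the other genes of these lists are therefore not shown to be particular to members. Itgb6, the integrin chain that activates TGF-beta, stood at 107 and 113 CPM in old members, against 47.5 and 39.6 CPM in young members (1.35 ± 0.17, adjusted p = 0.000105). Il4i1, a secreted amino acid oxidase, stood at 2343 and 2405 CPM in old members, against 1014 and 1061 CPM in young members (1.19 ± 0.12, adjusted p = 2.08e-05). Of 15 transitional genes 7 were higher in old members and none lower, among them Krt8 at 589 and 386 CPM in old members, against 278 and 316 CPM in young members (0.69 ± 0.16, adjusted p = 0.0275, and 0.158 without old LPS 1 and 0.104 without young LPS 1), and Clu, a secreted chaperone, at 1148 and 1723 CPM in old members, against 725 and 644 CPM in young members (1.08 ± 0.16, adjusted p = 0.000791).

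Surfactant, transcription factor and sterol genes were lower in old members where they passed: 3 of 16, 2 of 15 and 3 of 21 tested genes. Of these, Cebpa and Lss lost the call in each of the 4 fits with 1 table left out, Etv5 in 3, and Msmo1 and Atp8a1 in 2. Hmgcs1, an enzyme of cholesterol synthesis, stood at 92.1 and 97.1 CPM in old members, against 160.0 and 158 CPM in young members (-0.74 ± 0.14, adjusted p = 0.00565). Slc34a2 stood at 1751 and 2145 CPM in old members, against 2871 and 3187 CPM in young members (-0.63 ± 0.14, adjusted p = 0.0137), and leaving out young LPS 2 took it to 0.215. Npnt, a matrix protein, stood at 39.5 and 51.9 CPM in old members, against 138 and 109 CPM in young members (-1.39 ± 0.19, adjusted p = 0.000286). Sftpc, Lcn2 and Saa3 did not pass, at -0.06, -0.04 and 0.12. None of the 16 surfactant, 15 transcription factor and 21 sterol genes passed in the interaction of class and age. The age differences of these 3 lists are therefore not shown to be particular to members. The old members' interferon sum was lower by the medians given above, and the part of that shift in these differences was not tested. The AE2 marker sum stood at 86351 and 99567 CPM in old members against 114889 and 117597 CPM in young members, and the club cell markers at 2447 and 1971 CPM in old members against 573 and 432 CPM in young members, and their part was not tested either.

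**Figure D5:**
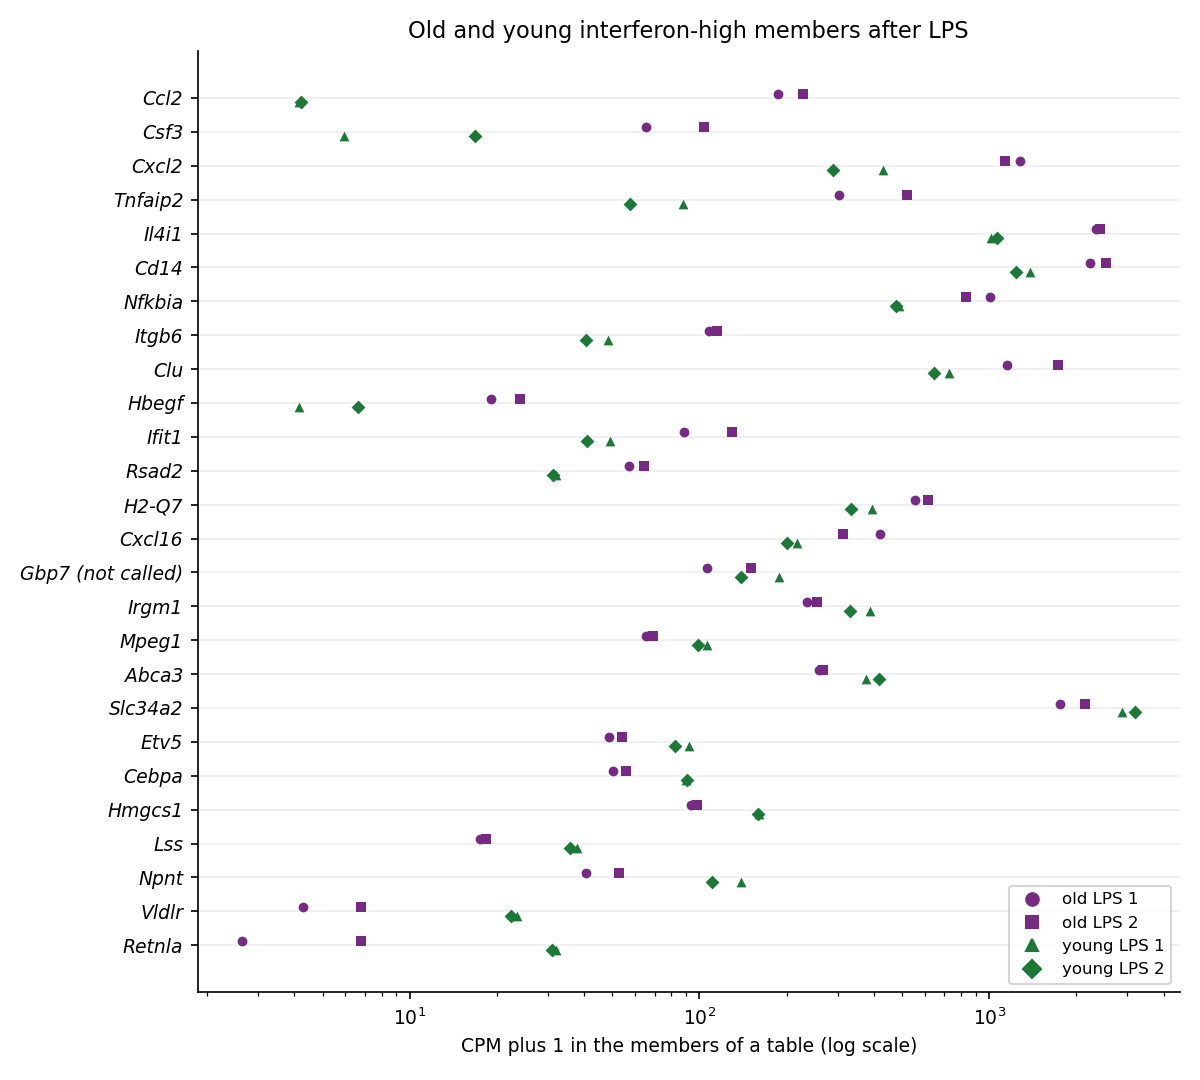
Level in CPM plus 1 (x axis, log scale) of 26 genes in the members of each LPS table, with purple for the 2 old tables and green for the 2 young tables. Ccl2, Csf3 and Cxcl2 lie far apart by age with old members higher, Retnla, Vldlr and Npnt with old members lower, and Gbp7 does not pass the test.

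Whether the difference between members and other AE2 cells itself depended on age was tested as an interaction over 9895 genes. It passed for 18 genes, 7 with a larger log2 fold change in old tables (0.0707%) and 11 with a smaller one (0.111%). None of 6 tested GBP genes, 22 class I genes, 9 class II genes or 16 surfactant genes passed. The GBP genes still had a median difference of 1.31, against -0.02 over all genes. The limits were pooled over ages, and the rule's own Iigp1 had larger ratios in old tables. Members had 13.3 and 9.30 times the level of other AE2 cells in old tables, against 4.98 and 6.92 times in young tables. The part of the pooled limits in the interaction of genes that run with the interferon sum was not tested. Of 9 tested IRG genes 2 had a larger member effect in old tables, F830016B08Rik (1.17) and Tgtp1 (1.47). Each lost the call in 3 of the 4 fits with 1 table left out. Irf7 had a larger member effect in old tables, by 0.89 ± 0.18 (adjusted p = 0.00979), with 167 and 158 CPM in old members against 45.2 and 32.9 CPM in other old AE2 cells, and 131 and 109 CPM in young members against 58.3 and 46.8 CPM in other young AE2 cells. That call was lost in 3 of the 4 fits with 1 table left out, where the difference lay between 0.67 and 1.07. Retnla, a secreted protein of type 2 inflammation, stood at 1.62 and 5.75 CPM in old members against 29.0 and 41.9 CPM in other old AE2 cells, and at 30.9 and 29.7 CPM in young members against 33.7 and 16.3 CPM in other young AE2 cells, an interaction of -3.47 (adjusted p = 2.49e-05) that all 4 such fits called. With quartiles taken within each table the interaction of Retnla turned to 0.37 and was not called. Its difference between old and young members turned to 0.82, not called, against -2.82 with pooled quartiles. Fgg, the fibrinogen gamma chain, stood at 9.70 and 15.3 CPM in old members against 22.97 and 23.3 CPM in other old AE2 cells, and at 30.4 and 41.7 CPM in young members against 13.6 and 24.0 CPM in other young AE2 cells (-1.75, adjusted p = 0.00575), and 1 of the 4 fits did not call it.

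AU040972, Fam183b, Tmem212, Rsph1, Tuba1a and Ifitm1 also passed with a smaller member effect in old tables. The ciliated marker sum was lower in old members than in other old AE2 cells and higher in young members than in other young AE2 cells, as given above. Without the barcodes of highest doublet score the first 4 no longer had enough counts, Tuba1a (-0.87) and Ifitm1 (-2.32) lost the call, and Retnla (-3.33) and Irf7 (0.90) kept it. With cells thinned to equal UMIs, 13 of the 18 genes could be tested and 0 of them kept the call. DESeq2 kept 2 of the 18.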

How the data were processed

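Droplet single-cell RNA-seq of EpCAM-sorted mouse lung cells was analysed from 8 tables of UMI counts per gene and barcode, as deposited, 1 per group and lane. The submitters' processing notes name the build mm10 and, with no role stated, the programs bcl2fastq, Cell Ranger 3.1.0, R 3.6.3, STAR and the Seurat versions 3.1 and 3.1.5. The counts were deposited already split by hashtag into groups, per the labels, which do not say how. The tables hold 6228266 to 15435789 UMIs each. A deposited barcode list was not used. Of 31053 gene IDs, 42 had no symbol in GENCODE M21.

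Of 14048 barcodes, 11245 had at least 500 genes and at most 20% mitochondrial counts. Scrublet (scanpy 1.11.5) marked 14 of them as doublets (0.1245%), a share at which it has not worked, so no barcode was removed on that ground and an alternative left out the highest 3% of scores per lane. UMIs were summed per table and class and tested with edgeR 4.0.16 (R 4.3.3; filterByExpr for low counts, TMM scaling, robust quasi-likelihood fit, Benjamini-Hochberg threshold 0.05), with DESeq2 1.42.0 as an alternative. The table entered as a block, since members and other cells of a table share animals, lane and hashtag. SEs are the log2 fold change divided by the root of F and are approximate. TMM factors were 0.989 to 1.01 against other AE2 cells, with 3 residual degrees of freedom, and 2 remained for both age comparisons. CPM were scaled in each comparison and differ slightly between them. The code was tested on simulated counts. Python 3.11.15, numpy 2.4.6 and scipy 1.17.1 were used.

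Members, gene lists and tests were chosen with earlier results of these data known. The text names, per comparison, the 8 largest called changes each way with at least 20 CPM and 1 sign in all tables, up to 3 called genes per list by smallest p or else its most abundant gene, the 10 genes of smallest interaction p, the genes of the rule and the 8 genes of highest rho. Outside that rule, and chosen after their values were seen, are B2m, Canx, Cd63, Cd74, Cxcl2, Cxcl10, Gbp4, H2-K1, Ifngr1, Irf7, Irf9, Nkx2-1, Nlrc5, Saa3, Stat2, Stat3, Tgtp1 and Tlr4 against other AE2 cells, Ifitm2 and Lcn2 against chemokine-high cells, and Irf1, Irf7, Krt8, Lcn2, Saa3 and Tap1 between ages. Listed genes without a count row (Gbp11, Irgb10, Etv7, Mx2, Ifi30, Cxcl11) were not analysed here, and some results of the naming rule are not reported here. Promoter sequences are from RefSeq (GRCm38.p6), which matched 4 of the 5 interferon genes of the rule.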

Additional observations from a re-analysis of the deposited data

Results flagged for a closer look

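Over the 4 tables, the log2 ratio of members to other AE2 cells was examined for 81 named genes, and in 9 of them 1 table lay far from the other 3. Chance alone would pick out about 1 gene in 20 in this way. In old LPS 2, the ratio of Cebpa was -1.17 (others -0.59 to -0.52), that of Lgi3, a secreted protein, -1.99 (others -0.94 to -0.85), that of the desaturase Scd2 -1.15 (others -0.51 to -0.43) and that of Slc34a2 -0.68 (others -0.39 to -0.33). The antiviral gene Ifit1 stood out there too, at 3.36 (others 1.84 to 1.93). In old LPS 1, the class II loading gene H2-DMb2 had a ratio of 1.76 (others 1.36 to 1.39), Jak2 0.71 (others 0.43 to 0.46) and Psmb10 1.15 (others 1.33 to 1.36). Krt8 had 0.067 in young LPS 1 (others 0.56 to 0.64).

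For the 10 genes of smallest p, all past the threshold, the member effect differed between ages, tested as the interaction of class and age in edgeR, as old minus young effect on the log2 scale. Irf7 differed by 0.89 and Ubd, a ubiquitin-like protein induced by interferon gamma and TNF, by 2.56. Ubd stood at 6.47 and 51.8 CPM in old members against 1.96 and 4.51 CPM in other old AE2 cells, and at 24.2 and 6.02 CPM in young members against 13.9 and 4.98 CPM in other young AE2 cells, and its difference was 1.053 without old LPS 2. Retnla differed by -3.47 and Fgg by -1.75. AU040972 differed by -5.59, Fam183b by -5.90, Ifitm1 by -4.85 and Tuba1a by -2.73. Tmem212 (-10.00) and Rsph1 (-10.22) had no UMI in old members, so that these fitted values depend on the prior count and are no measure of size. The ciliated marker sum moved with the last 6 genes, as described above, and its part in them was not tested beyond leaving out the barcodes of highest doublet score. The part of the limits pooled over ages in the Irf7 difference was not tested.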

How the results depend on the processing

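Against other AE2 cells, 532 genes were higher and 450 lower: DESeq2 gave 306 and 108, cells thinned to equal UMIs 335 and 238, members with no chemokine condition 995 and 965, and the fit with no replicate block 168 and 7. Leaving out 1 table gave 328 to 613 higher and 175 to 470 lower (343 and 240 without young LPS 1, 328 and 175 without young LPS 2). Against chemokine-high cells (231 and 60), DESeq2 gave 128 and 21, thinning 114 higher, and 1 table left out 135 to 223 higher and 28 to 53 lower (135 and 28 without old LPS 2). Lower genes there were 142 with quartiles within each table, 108 with the top decile, 142 with Sftpc at 0.2%, an alternative chosen after seeing the data, and 17 with no replicate block. The interaction (7 and 11) gave 0 and 2 by DESeq2, with 72 genes at an unadjusted p under 0.05, 2 and 2 with quartiles within each table, 14 and 5 with the top decile, 1 and 0 with thinning, with 323 at an unadjusted p under 0.05, 13 and 2 with Sftpc at 0.2%, 4 higher with totals without the 10 most abundant genes, 2 lower without high doublet scores, and 1 to 62 higher and 7 to 49 lower with 1 table left out (62 and 49 without old LPS 1, 6 and 28 without old LPS 2, 1 and 10 without young LPS 1, 3 and 7 without young LPS 2).

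Old against young members (132 and 112) gave 61 and 29 by DESeq2, 203 and 222 with no filter on low counts, 74 higher with quartiles within each table, 46 and 22 with the top decile, 48 and 21 with thinning, 223 and 194 with the lane as replicate block, and 86 to 121 higher and 62 to 112 lower with 1 table left out (86 higher without young LPS 2, 62 lower without old LPS 1 and 64 without young LPS 1). Retnla turned to 0.37 (interaction) and 0.82 (old against young) with quartiles within each table, and the interaction of Sftpc, -0.07 and not called, was 0.50 without old LPS 2 and -0.65 without old LPS 1. The causes were not tested. The difference in share lay between -31.1 and -13.0 points in the alternatives with limits pooled over tables. Quartiles within each table, an alternative added after seeing the data, set the same share above each limit in every table and gave a difference of -0.013 points (15.03% in old and 15.04% in young). Of the named genes called, 54 of 79 against other AE2 cells, 33 of 51 against chemokine-high cells, 20 of 50 between ages and 6 of 13 in the interaction kept the call in every fit with 1 table left out. Genes at a few CPM in 69 members of old LPS 1, or in 37 and 41 chemokine-high young cells, rest on few UMIs.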
